A study of Ovis aries with 15 samples.

Results

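Genes for the sodium pump, the chloride channel CFTR and the epithelial sodium channel were examined in mammary gland of Romney ewes (Ovis aries). The 7 genes were taken by symbol from the 24691 features of the deposited table and are ATP1B1, ATP1B3 and FXYD3 of the pump, CFTR, and SCNN1A, SCNN1B and SCNN1G of the sodium channel. The table held 6 of them by symbol and ATP1B3 as LOC101107568, matched by its RefSeq gene ID. Parenchyma was taken by needle biopsy from 2-year-old primiparous ewes in late pregnancy (gestation day 135, SD 2.4) and again in lactation (day 15 after birth, SD 1.27), and RNA of several ewes was pooled for each library. There were 9 late pregnancy and 6 lactation pools, and the labels give 3 ewes to a late pregnancy pool and 2 to a lactation pool, whereas the methods give 3 to every pool. The ewes were untreated and kept under common pasture conditions, but their own dams had been fed ad libitum (HM), at maintenance (MM) or below maintenance (LM) until day 50 of gestation and at maintenance from then to day 140. Each dam group had 3 late pregnancy and 2 lactation pools. No label ties a late pregnancy pool to a lactation pool of the same ewes, so the main tests treated the pools as independent. The p-values measure the spread between pools of RNA and leave the repeated sampling of ewes out.

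The sodium pump (Na,K-ATPase) carries sodium out of the cell and potassium in, at the cost of ATP, and in secretory mammary epithelium it lies on the basolateral side. It is built of a catalytic subunit and a glycosylated beta subunit that takes it to the membrane, and small FXYD proteins bind to it and tune its kinetics. CFTR is a cAMP-regulated chloride and bicarbonate channel of apical membranes, and the epithelial sodium channel (ENaC) is an apical channel of alpha, beta and gamma subunits (SCNN1A, SCNN1B and SCNN1G) that lets sodium back into epithelial cells. Milk is low in sodium and chloride and high in potassium compared with plasma, and these transporters belong to the textbook account of how that difference is kept.

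Depth ran from 7597938 to 19823166 gene reads per library in late pregnancy and from 10352962 to 25679416 in lactation. Levels are given as CPM (exon reads set to a common library size with TMM scaling in edgeR) and, between genes, as RPKM made from those CPM and the exon length. Depth after TMM scaling ran the other way. For SCNN1G, 3 reads over the group amounted to 0.00726 RPKM in late pregnancy (9 libraries) and 0.0318 in lactation (6 libraries). The number of libraries is also part of that gap. Genes of few reads were thus harder to detect in lactation. Luminal epithelial markers were present in every library, with summed CPM of 1761 to 2174 in late pregnancy and 2495 to 2745 in lactation; of the 8 markers 4 were higher and 2 lower in lactation. Fibroblast markers summed to 1335 to 2127 CPM and then 632 to 1025, with 5 of 8 lower and none higher. Lower in lactation were also 5 of 7 endothelial, 4 of 7 macrophage (1 was higher) and 6 of 6 T cell markers. Of the myoepithelial markers 4 of 7 were higher and 2 lower, of the B and plasma cell markers 2 of 4 higher and 1 lower, of the neutrophil markers 1 of 3 each way, and of the adipocyte markers none of 4. Over all genes tested, 33.1% were higher and 35.2% lower in lactation. No marker was at 0 in every library. In bulk tissue, fewer cells of a type and less RNA per cell cannot be told apart.

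Of the 7 genes, 2 had enough reads to pass edgeR's filter on low counts (filterByExpr by state), and the other 5 had at most 14 reads on exons in any library. ATP1B1 was lower in lactation, ATP1B3 did not pass the test, and SCNN1G had reads on exons in 5 of 6 lactation libraries and in no late pregnancy library. Of all 13345 genes tested, 68.4% were called at an adjusted p under 0.05, 35.2% lower and 33.1% higher in lactation, so that a call was the usual outcome for a gene of this tissue.

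ATP1B1, the beta subunit most widespread in epithelia, lies on chromosome 12 from 34911460 to 34940329 (Oar_v3.1 in the labels) with 7 exons. In late pregnancy its level ran from 32.1 CPM in LM pool 2, through a median of 42.8, to 73.9 in HM pool 2. In lactation it ran from 20.2 CPM in LM pool 2, through a median of 30.6, to 43.3 in MM pool 1. The highest lactation pool lay above the late pregnancy median, so the states overlapped. The mean was 45.3 ± 13.3 CPM (SD, n = 9) in late pregnancy against 30.9 ± 8.55 (n = 6). The log2 change of ATP1B1 was -0.53 (SE 0.18, 95% interval -0.88 to -0.17), or 1.44-fold lower in lactation, with an adjusted p of 0.0152 in edgeR's quasi-likelihood test with Benjamini-Hochberg adjustment. HM pool 2 of late pregnancy stood above the other pools, and without it the change was -0.41 (adjusted p 0.0229, same test).

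The column names also carry a lane, although the descriptions state that reads of both lanes were combined. Among the 4 late pregnancy and 3 lactation libraries named for lane 7, the ATP1B1 change was -0.56 with an adjusted p of 0.093 in edgeR's test, and among the 5 and 3 named for lane 8 it was -0.53 with an adjusted p of 0.0103. The size was alike in both sets, and the call was lost in the smaller one. The sets also differed in dam group, with every LM library named for lane 8. HM pool 2 of late pregnancy, the highest for ATP1B1, was named for lane 7. Scaling by library size alone moved the median log2 change of all genes from -0.03 to -1.94. Relative to that median, ATP1B1 was at a log2 of -0.49 with TMM and -0.48 with library size alone. By construction a change of scaling leaves such a value almost as it is.

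**Figure D1:**
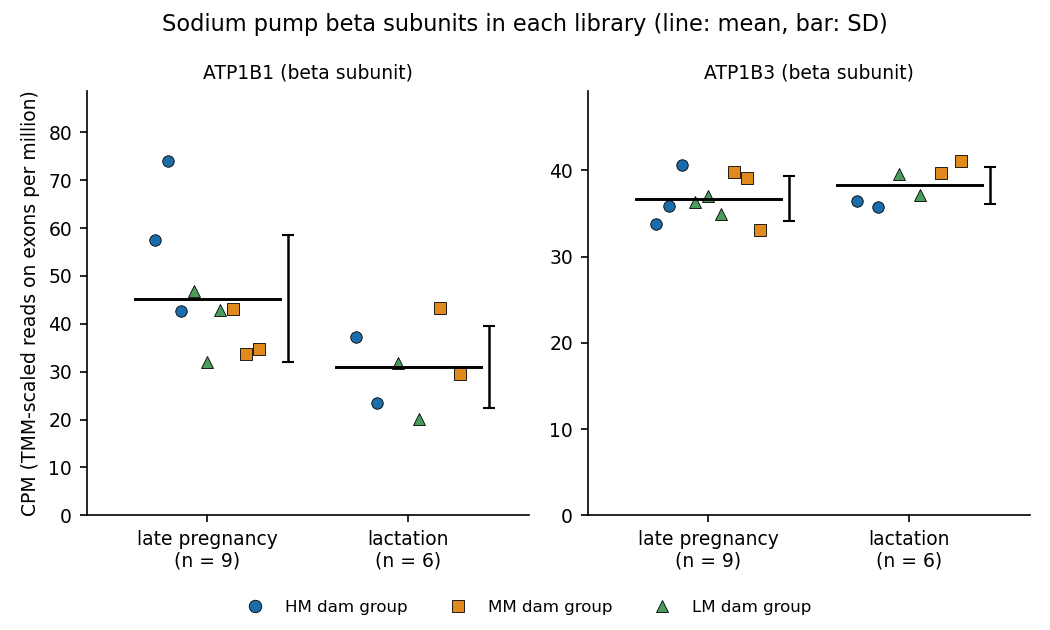
Level of ATP1B1 and ATP1B3 in CPM (TMM-scaled reads on exons, vertical axes from 0) in each of the 9 late pregnancy and 6 lactation libraries; each point is a library marked by dam group, the line is the mean and the bar 1 SD. ATP1B1 falls from a mean of 45.3 to 30.9 CPM with overlapping states and its highest point in HM pool 2 of late pregnancy, and ATP1B3 lies between 33.0 and 41.0 CPM in every library.

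Reads that fell within the ATP1B1 gene but outside its exons were a second readout of the same gene. Such reads numbered 23 to 48 in the late pregnancy libraries (median 41) and 2 to 16 in the lactation libraries (median 6.5). Scaled by their own library totals they ran from 10.4 to 34.5 CPM and from 3.27 to 11.6 CPM, so that the states overlapped by a small margin. They changed by a log2 of -0.94 (SE 0.29, adjusted p 0.00795 in edgeR's quasi-likelihood test with Benjamini-Hochberg adjustment); of the 10344 genes tested on such reads 58.0% were called, 29.0% lower and 29.0% higher. HM pool 2 of late pregnancy again stood apart, at 34.5 CPM of these reads against at most 15.4 in the other late pregnancy pools, and without it the change was -0.79 (adjusted p 0.00415, same test). One end of the gene overlaps NME7 (34940184 to 35179962), a nucleoside diphosphate kinase family gene at 13.2 ± 1.07 CPM (SD) in late pregnancy and 7.72 ± 0.899 in lactation; the libraries did not keep strand, so reads in the shared stretch cannot be told apart.

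ATP1B3, the third beta subunit isoform, lies on chromosome 1 from 245072465 to 245097571 with 7 exons, and 91.6% of its exon reads were uniquely placed. Its level was 33.0 CPM at the lowest, 36.3 at the median and 40.6 at the highest in late pregnancy, and 35.7, 38.4 and 41.0 CPM in lactation. All 15 libraries lay within a narrow band and the states overlapped. The mean was 36.7 ± 2.66 CPM (SD, n = 9) in late pregnancy, and in lactation 38.3 ± 2.13 (n = 6). The log2 change was 0.06 (SE 0.06, 95% interval -0.05 to 0.18), with an adjusted p of 0.324 in edgeR's quasi-likelihood test. Its sign depended on scaling, since the change was -1.84 with library size alone, -0.09 with upper quartile scaling and -0.14 in limma on the authors' quantile-normalized RPKM (adjusted p 0.018). Relative to the median gene it was 0.09 both with TMM and with library size alone, a value that scaling leaves almost unchanged by construction.

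Outside its exons ATP1B3 went the other way from ATP1B1. Its reads there were 50 to 139 in late pregnancy libraries and 32 to 77 in lactation, which after scaling was 38.3 ± 6.98 CPM (SD, n = 9) and 60.1 ± 10.5 (n = 6). Late pregnancy reached 52.1 CPM and lactation began at 48.3, so the states overlapped slightly. The log2 change was 0.65 (SE 0.13, adjusted p 1.6e-04 in edgeR's quasi-likelihood test), and with library size alone it was 0.04 (adjusted p 0.82). On such reads library size alone also moved ATP1B1 from -0.94 to -1.58 and CFTR from -0.00064 to -0.62. The share of the gene's reads outside exons was 11.1% in the summed late pregnancy libraries and 16.4% in the summed lactation libraries. The median share over 12740 genes was 17.1% and 17.9%.

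Ratios within a library do not depend on how libraries are scaled. By RPKM, ATP1B1 was 0.729 ± 0.234 (SD, n = 9) of ATP1B3 in late pregnancy, and in lactation 0.472 ± 0.124 (n = 6), and the log2 ratio fell by 0.61 (exact two-sided permutation test over 5005 arrangements of the labels, p = 0.014, adjusted p 0.014 over the 3 ratios computed). ATP1B3 had the higher RPKM in 7 of 9 late pregnancy libraries and in all 6 lactation libraries. ATP1B1 made up 41.3% ± 7.11 of the summed RPKM of both beta subunits in late pregnancy and 31.7% ± 5.69 in lactation. This share was computed after the data were seen and is given without a test. Leaving out HM pool 2 of lactation, the log2 ratio fell by 0.56 and the adjusted exact permutation p was 0.0508.

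**Figure D2:**
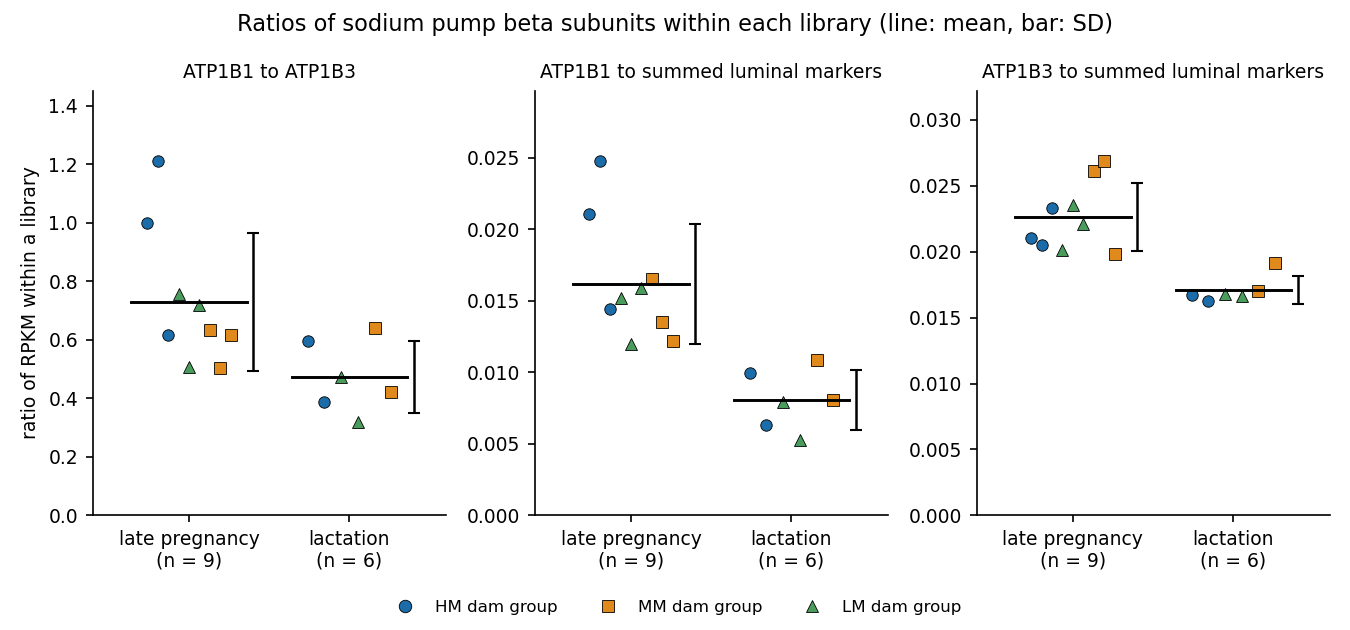
Ratio of RPKM within each library for ATP1B1 to ATP1B3, ATP1B1 to the summed luminal markers and ATP1B3 to the summed luminal markers (vertical axes from 0), for 9 late pregnancy and 6 lactation libraries marked by dam group; the line is the mean and the bar 1 SD. Mean ratios fall from 0.729 to 0.472 with overlap of the states, and from 0.0162 to 0.00807 and from 0.0226 to 0.0171 without overlap; the last rises when KRT19 and ELF5 are left out of the markers.

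Against the summed RPKM of the 8 luminal epithelial markers, the log2 ratio of ATP1B1 fell by 1.01 and that of ATP1B3 fell by 0.40, with no overlap between the states, each with an exact permutation p of 0.0002, the smallest that 5005 arrangements allow, and an adjusted p of 0.0003. These ratios turned on KRT19 and ELF5, the most abundant markers of the list, both of them higher in lactation. Without them the log2 ratio of ATP1B1 fell by 0.26 (adjusted exact permutation p 0.269) and that of ATP1B3 rose by 0.35 (adjusted exact permutation p 0.0048). The part of luminal cell number in the pump changes was not tested.

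FXYD3, a pump regulator found in epithelia, lies on chromosome 14 from 44948019 to 44954666 and was near the limit of detection. It had 0 reads on exons in 6 of 9 late pregnancy libraries, 1 in LM pool 3 and MM pool 3 and 7 in LM pool 2, and in lactation 1 read in LM pool 1 and in both MM pools and 0 elsewhere. The library with 7 reads stood apart, and 6 of its reads crossed an exon junction. Over the groups this was 9 reads in late pregnancy and 3 in lactation. The lactation to late pregnancy ratio of summed reads after scaling was 1.46 (95% interval 0.254 to 5.85, counting error only). Without LM pool 2 it was 5.54 (0.635 to 66.4). No difference was detectable at this depth. The table has only 497 bases of exon for the gene, and the mean RPKM was 0.0758 in late pregnancy and 0.112 in lactation.

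CFTR lies on chromosome 4 from 50694967 to 50881825 with 27 exons in 186859 bases. The 9 late pregnancy libraries had 0 to 4 reads on its exons, 17 in all, and the 6 lactation libraries had 0 to 2, 3 in all. The ratio of summed reads after scaling was 0.773 (95% interval 0.145 to 2.67, counting error only), so that no difference was detectable. Reads outside the exons were far more numerous, with 42 to 124 in late pregnancy and 15 to 53 in lactation, and made up 97.8% and 98.4% of the reads on the gene. Scaled, these reads were 32.6 ± 2.87 CPM (SD, n = 9) and 32.2 ± 6.98 (n = 6), a log2 change of -0.00064 (SE 0.13, 95% interval -0.26 to 0.26, adjusted p 0.998 in edgeR's quasi-likelihood test).

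Per kilobase, CFTR exons held no more reads than the rest of the gene. Exons had 3.54 reads per kilobase over the late pregnancy libraries and the rest of the gene 4.08, a ratio of 0.868, and in lactation the ratio was 0.633. Over 13046 genes with at least 100 reads in late pregnancy the median ratio was 43.2, and 1.5% of genes were at or below CFTR; in lactation the median was 46.6 and 1.12% of 10762 genes were at or below it. Reads across an exon junction of CFTR were 5 in all late pregnancy libraries and 1 in lactation. The authors' software listed 0 to 5 putative new exons for the gene in a library, and none for any other of the 7 genes.

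**Figure D3:**
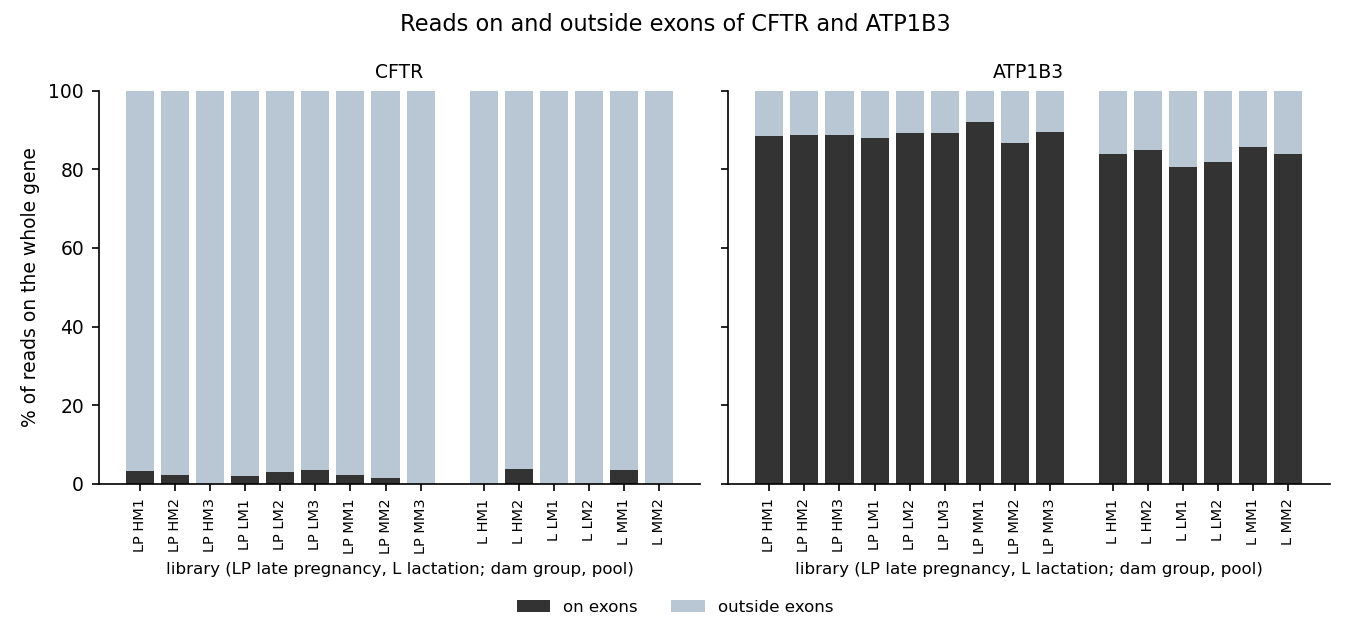
Share of the reads on the whole gene that fell on exons (dark) and outside exons (light) in each library, as percent from 0 to 100, for CFTR and for ATP1B3, with late pregnancy libraries on the left and lactation libraries on the right of each panel. In CFTR nearly every read lies outside exons in every library (97.8% and 98.4% over the states), whereas in ATP1B3 11.1% and 16.4% do.

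The ENaC subunits were all near the limit of detection. SCNN1A, the alpha subunit that the channel needs for its current, lies on chromosome 3 from 207944285 to 207967011. It had 1 to 14 reads on exons in late pregnancy libraries (median 5, 50 in all) and 0 to 4 in lactation (median 1, 9 in all). LM pool 2 had the 14 reads. The CPM were 0.251 ± 0.152 (SD, n = 9) and 0.19 ± 0.122 (n = 6), and the ratio of summed reads after scaling was 0.788 (95% interval 0.341 to 1.62, counting error only). In a fit of edgeR without the filter, in which 51.0% of 19350 genes were called, the log2 change was -0.38 with an adjusted p of 0.584.

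SCNN1B, the beta subunit, lies on chromosome 24 from 21046020 to 21070823. It had 10 reads on exons over the late pregnancy libraries, with 4 in LM pool 3, 2 in LM pool 1 and none in the MM pools, and 1 read in lactation, in HM pool 1. The ratio of summed reads after scaling was 0.438 (95% interval 0.0101 to 3.08, counting error only), which spans changes in both directions.

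SCNN1G, the gamma subunit, lies on the same chromosome from 20889422 to 20914902. It had 0 reads on exons in all 9 late pregnancy libraries. In lactation it had 6 reads in HM pool 1, 2 in LM pool 1, 2 in MM pool 2, 1 in HM pool 2, 1 in MM pool 1 and 0 in LM pool 2. Reads thus stood in 5 of 6 lactation libraries, and 1 library held 50% of them. Against a floor of 3 reads over the late pregnancy group, the lactation level was at least 17.5-fold higher with its reads taken as counted, and without HM pool 1 at least 9.79-fold higher. With the counting error of the lactation reads included, the exact 95% interval of the ratio began at 12.2-fold, and without HM pool 1 at 5.76-fold; the spread between libraries is not part of it. The edgeR fit without the filter took every gene with any read. SCNN1G thus entered it only through lactation, where it was high, and its test is given as a description. Its adjusted p in that quasi-likelihood test was 4.0e-04, where 23.7% of genes were called higher.

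The lactation reads of SCNN1G were spliced in part, with 8 of 12 across an exon junction, 6 of them in HM pool 1. Outside its exons the gene had 5 reads over the late pregnancy libraries and 1 in lactation. The level remained low in lactation, at 0.346 ± 0.486 CPM (SD, n = 6) and a mean RPKM of 0.159.

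**Figure D4:**
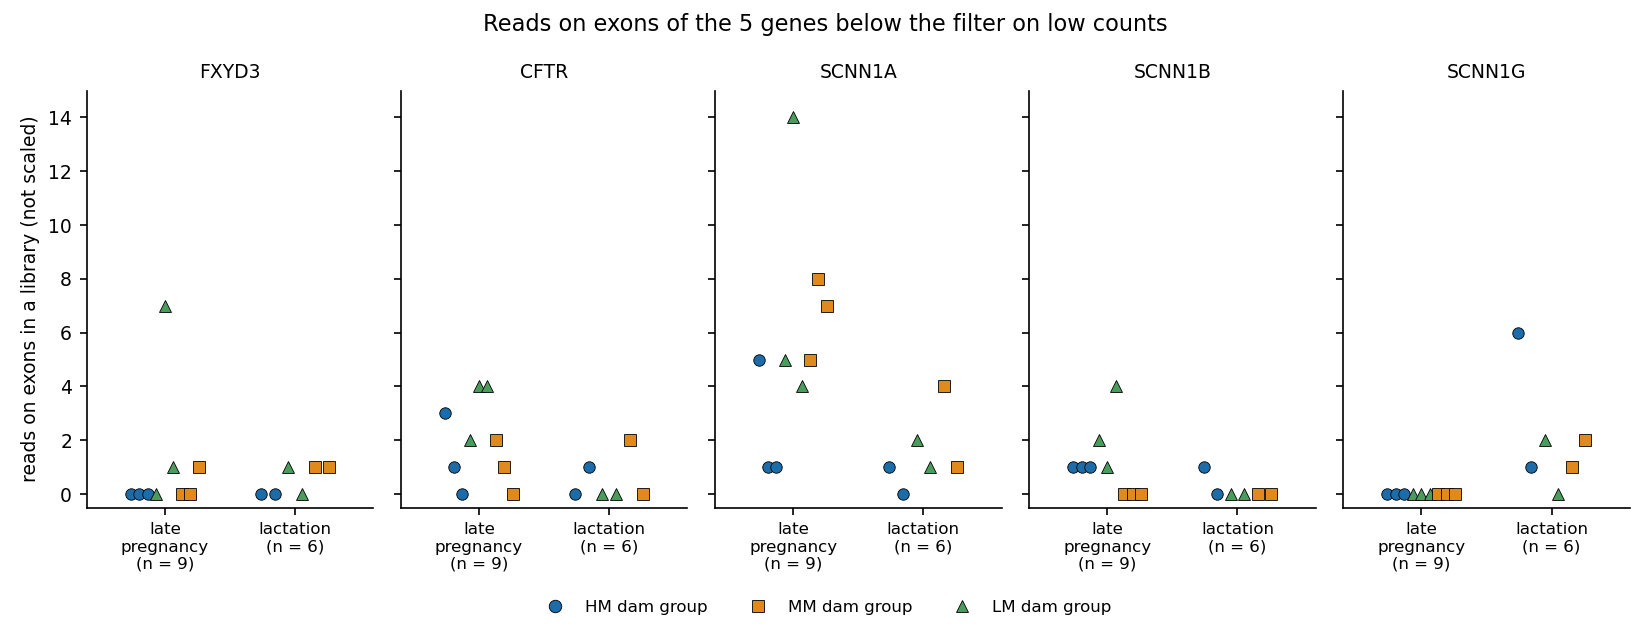
Reads on exons, as counted and not scaled (vertical axis, shared), of FXYD3, CFTR, SCNN1A, SCNN1B and SCNN1G in each of 9 late pregnancy and 6 lactation libraries marked by dam group. No point is above 14 reads, SCNN1G is at 0 in every late pregnancy library and at 0 to 6 in lactation, and for the other genes the states overlap.

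Per length, ATP1B3 stood above ATP1B1 on average in both states. ATP1B3 had a mean of 29.4 ± 2.13 RPKM (SD, n = 9) in late pregnancy against 30.6 ± 1.70 (n = 6) in lactation, and ATP1B1 had 21.2 ± 6.23 against 14.5 ± 4.01. In late pregnancy the ranges of the beta subunits overlapped, at 26.4 to 32.4 RPKM for ATP1B3 and 15.1 to 34.6 for ATP1B1. In lactation they did not, at 28.5 to 32.8 and 9.45 to 20.3 RPKM. The other 5 genes had mean levels of at most 0.159 RPKM in either state. In late pregnancy SCNN1A, at 0.0374 to 0.239 RPKM, lay above CFTR at 0 to 0.0317 and SCNN1G at 0, and the other ranges overlapped, as did all 5 in lactation. Among the levels of all tested genes, ATP1B3 stood at percentile 85.2 in late pregnancy and 83.8 in lactation, and ATP1B1 at 80.5 and 70.8.

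The feed of the ewes' dams was the factor in the labels. In late pregnancy ATP1B1 was at 42.7, 57.6 and 73.9 CPM in the HM pools, 32.1, 42.8 and 46.9 in the LM pools and 33.6, 34.7 and 43.1 in the MM pools. The HM pools were the highest on average (58.1 ± 15.6 CPM, SD, n = 3) and overlapped the other groups. The 3-group test of edgeR gave ATP1B1 an unadjusted p of 0.0102 and a Benjamini-Hochberg adjusted p of 1.00. None of 13747 genes was called at an adjusted p under 0.05 (0.0%), 4.15% had an unadjusted p under 0.05, and DESeq2 called 20 genes (0.145%), with ATP1B1 at an adjusted p of 0.237. In lactation the MM pools were highest on average, at 29.4 and 43.3 CPM. For ATP1B3 the same edgeR test gave an adjusted p of 1.00. The interaction of dam group and state had an unadjusted p of 0.0609 for ATP1B1 and 0.649 for ATP1B3 in edgeR, where 6.56% of genes had an unadjusted p under 0.05 and none (0.0%) an adjusted one, while DESeq2 called 19 (0.142%).

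Within the states, the beta subunits showed almost no correlation. After the mean of each state was subtracted, Pearson's r over the 15 libraries was -0.0078 between ATP1B1 and ATP1B3. Among the 7073 genes that averaged 10 CPM or more, those most like ATP1B1 by this measure were ZNF22 (r = 0.867) and FUCA1 (r = 0.827), and those most like ATP1B3 were ATP5F1 (r = 0.811) and CDK2AP1 (r = 0.778). The libraries share their depth and makeup across genes, and these are descriptions.

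Genes that work with the pump and both channels were followed in 7 lists. Of 73 symbols 66 were in the table and 47 passed the filter, of which 24 were higher, 10 lower and 13 not called in lactation, beside 33.1% higher and 35.2% lower over all genes. Their median log2 change was 0.29, against -0.03 over all genes, with TMM scaling. With library size alone 43 were lower and 1 higher. Of the 47 genes 30 lay above the median of all genes, a count that a change of scaling leaves almost as it is by construction.

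Other pump subunits and FXYD proteins gave 1 lower gene of 3 tested and none higher, beside 35.2% lower and 33.1% higher over all genes. The lower one was FXYD5, at 6.97 ± 0.947 CPM (SD, n = 9) in late pregnancy, and in lactation 4.17 ± 0.976 (n = 6). FXYD6 was the FXYD gene with the most reads, at 291 ± 19.7 CPM and 265 ± 51.1 (log2 change -0.14, SE 0.09, adjusted p 0.181 in edgeR's test). FXYD5 and FXYD6 were named after their values were seen. The beta subunits ATP1B2 and ATP1B4 were below the filter, with 83 and 12 reads over all libraries.

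SCNN1D, the delta subunit that can stand in for the alpha subunit of ENaC, was the 1 gene of 6 in the list of other ENaC and acid-sensing channel subunits that passed the filter, and is named after its values were seen. It had 14 to 43 reads on exons in late pregnancy libraries and 1 to 4 in lactation. SCNN1D thus passed the filter through late pregnancy, where it was high, and its test is given as a description. The CPM were 1.36 ± 0.435 (SD, n = 9) and 0.386 ± 0.324 (n = 6), with a log2 change of -2.09 (SE 0.42, adjusted p 1.9e-04 in edgeR's test). The lowest late pregnancy library, at 0.752 CPM, lay below the highest lactation library, at 0.879.

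Hormone and kinase control of ENaC had 8 of 14 genes tested higher in lactation and 1 lower, beside 33.1% and 35.2% of all genes. The median log2 change of the list was 0.52. The list was made by function and not by direction of effect, so its counts give no direction of control of ENaC. The mineralocorticoid receptor NR3C2, through which aldosterone raises sodium uptake, went from 32.4 ± 3.58 CPM (SD, n = 9) to 80.5 ± 8.88 (n = 6), a log2 change of 1.31 (SE 0.08, adjusted p 7.1e-12 in edgeR's test). The glucocorticoid receptor NR3C1 went from 21.9 ± 2.97 to 49.7 ± 5.56 CPM. WNK4, a kinase that governs cation-chloride cotransport, went from 12.7 ± 3.66 to 45.8 ± 7.31 CPM. SGK2, of the kinase family that keeps ENaC at the membrane, went from 0.678 ± 0.21 to 2.50 ± 0.753 CPM. These 4 were named for an absolute log2 change above 1, and none overlapped between states. A choice by the size of the change favours genes without overlap. The 40.2% of all genes tested that had none is thus not a like comparison. SGK1, the best known of that family and named after its values were seen, was not called (log2 change -0.12, SE 0.14, adjusted p 0.463 in edgeR's test).

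Proteases and inhibitors that act on ENaC had 2 of 5 genes lower and none higher, beside 35.2% lower and 33.1% higher over all genes. FURIN, which cuts the alpha and gamma subunits of ENaC on their way to the membrane, fell from 38.3 ± 3.96 CPM (SD, n = 9) to 14.2 ± 3.03 (n = 6), with a log2 change of -1.42 (SE 0.11, adjusted p 3.7e-10 in edgeR's test). The other was the protease inhibitor SPINT1, named after its values were seen, with a log2 change of -0.45 (SE 0.06). Among CFTR partners, kinases and quality control genes 7 of 10 were higher and 1 lower, beside the same shares over all genes, with a median of 0.42. That list too was made by function and not by direction of effect, so its counts give no direction for CFTR. Ezrin (EZR), which ties membrane proteins to actin, rose from 154 ± 11.1 to 360 ± 29.0 CPM (log2 change 1.23, SE 0.06, adjusted p 4.1e-13 in edgeR's test).

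Other chloride and bicarbonate routes were split, with 3 of 7 higher and 3 lower, beside 33.1% and 35.2% of all genes. The sodium-potassium-chloride cotransporter SLC12A2, which loads chloride across the basolateral membrane, fell from 143 ± 26.3 CPM (SD, n = 9) to 44.8 ± 7.92 (n = 6), a log2 change of -1.67 (SE 0.13, adjusted p 4.0e-10 in edgeR's test). The calcium-activated chloride channel ANO1 fell from 13.2 ± 2.19 to 3.88 ± 1.14 CPM and the sodium-bicarbonate cotransporter SLC4A4 from 6.67 ± 1.47 to 1.10 ± 0.713. SLC4A4 passed the filter through late pregnancy, where it was high, and its fall is given as a description. The potassium-chloride cotransporter SLC12A4 rose from 8.83 ± 0.665 to 26.6 ± 4.06 CPM. These 4 were named by the same rule, and none overlapped between states. The rule favours genes without overlap, so the 40.2% of all genes tested that had none is not a like comparison.

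Epithelial potassium channels were higher in 6 of 7 genes tested, beside 33.1% of all genes, with a median log2 change of 1.03. The leak channel KCNK6 had the highest change, from 7.40 ± 0.828 CPM (SD, n = 9) to 52.6 ± 4.76 (n = 6), a log2 change of 2.84 (SE 0.07, adjusted p 1.1e-16 in edgeR's test). KCNK1, of the same family, rose from 19.7 ± 2.58 to 53.9 ± 3.22 CPM and the inward rectifier KCNJ15 from 7.93 ± 2.00 to 24.3 ± 4.04. KCNQ1 had few reads and overlapped between states, with a log2 change of 1.03 (SE 0.31, adjusted p 0.00603 in edgeR's test). The 1 lower gene was the calcium-activated channel KCNN4, named after its values were seen, with a log2 change of -0.42 (SE 0.15, adjusted p 0.0203 in edgeR's test).

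**Figure D5:**
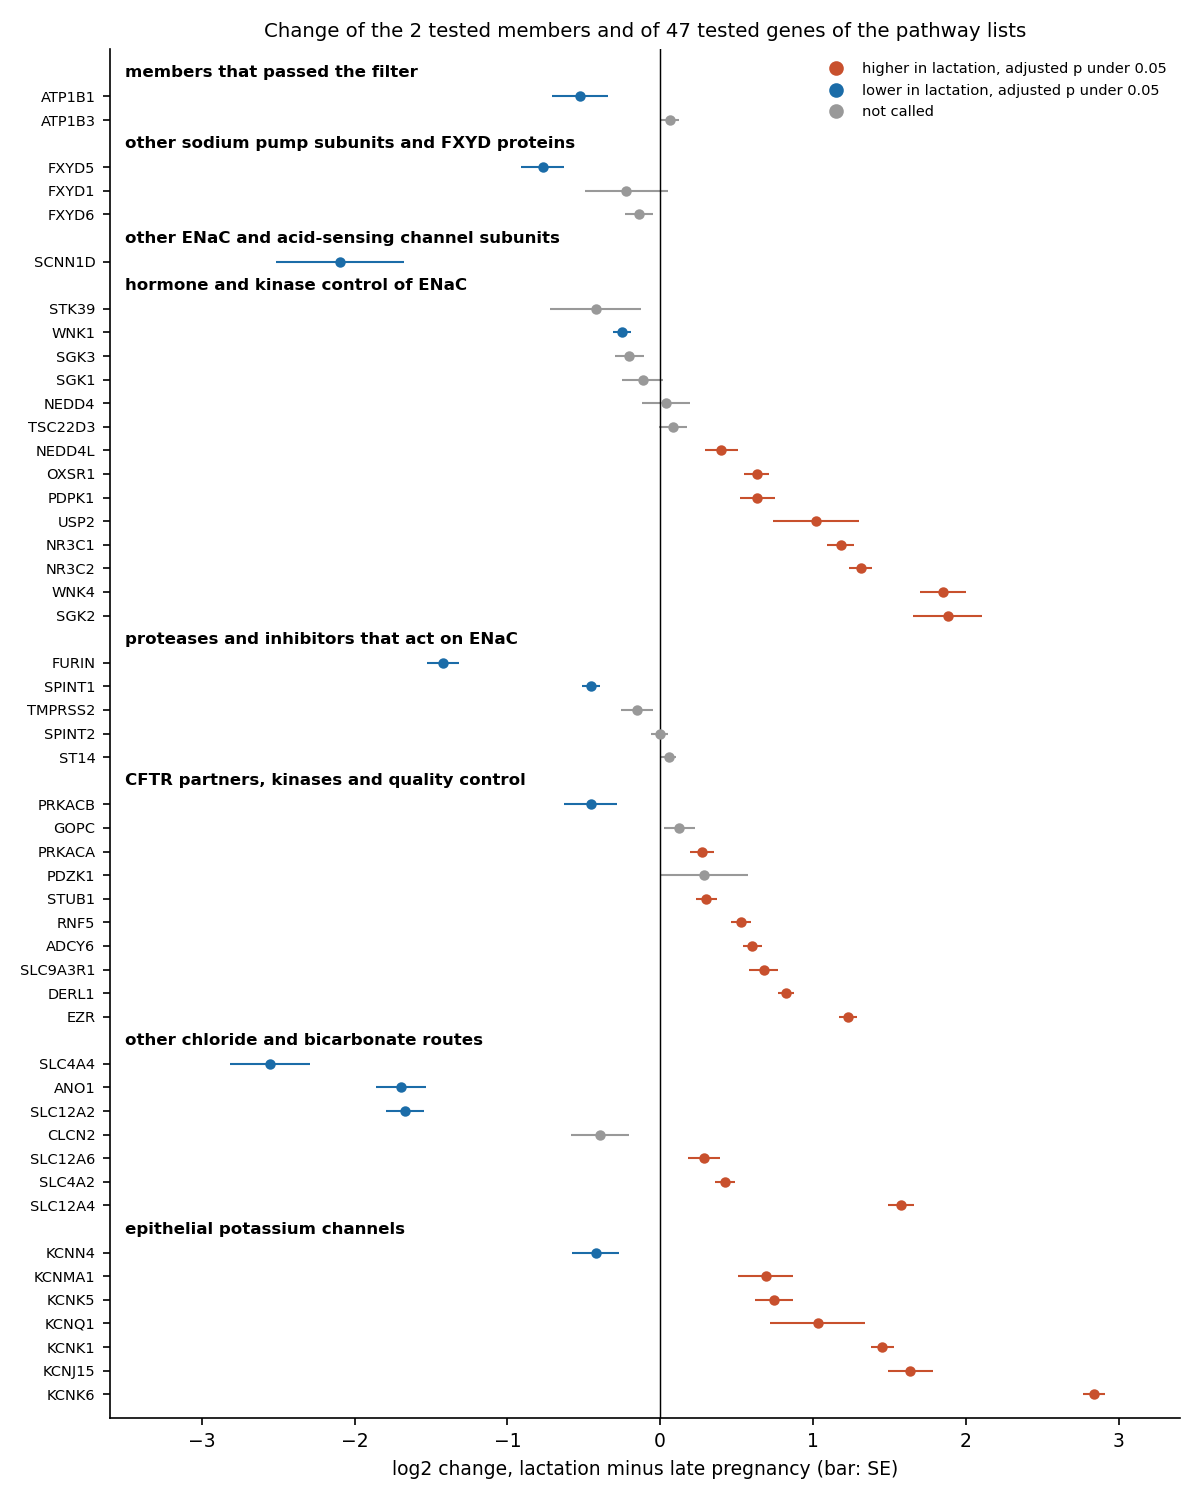
Log2 change (lactation minus late pregnancy, horizontal axis, bar 1 SE) of ATP1B1, ATP1B3 and the 47 tested genes of the 7 pathway lists, coloured by the call at an adjusted p under 0.05 in edgeR's test. Of the 47 genes 24 lie on the higher side as called and 10 on the lower side, KCNK6 is farthest right at 2.84 and SLC4A4 farthest left at -2.55. SLC4A4 and SCNN1D passed the filter through late pregnancy, where they were high.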

How the data were processed

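RNA of mammary biopsies was sequenced as 15 libraries of pooled RNA (TruSeq RNA V2, a kit that does not keep strand). Paired reads were mapped by the authors with CLC Genomics Workbench. They deposited a single table with read counts on exons and on whole genes, RPKM and quantile-normalized RPKM. The labels name the build Oar_v3.1, and the methods a later release. The deposited counts are not normalized. The deposited RPKM are exon reads scaled by exon length and by the reads on genes. Columns of the authors' Baggerly test (fold changes, p-values and corrected p-values) were not used, and no column of another series was present (0).

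The 7 genes and the lists were chosen with earlier results of these data known. Exon reads (whole-gene reads where no transcript was annotated) entered edgeR 4.0.16 (R 4.3.3): filterByExpr by state, TMM and a quasi-likelihood F-test without covariates, with Benjamini-Hochberg adjustment over all 13345 genes tested. A gene was called at an adjusted p under 0.05. Reads outside exons (whole gene less exons) were tested the same way. Ratios of RPKM within a library were tested by exact permutation; of 14 ratios listed, 11 had a library at 0 and were not computed. From each list, called genes with an absolute log2 change above 1 and a mean of at least 1 CPM were named, at most 4 by size, and others are said to be named after their values were seen. A gene at 0 was set to a floor of 3 reads over its group. Conditional exact binomial 95% intervals of ratios of counts and these floors cover counting error only, since reads were summed over the libraries of a state. Reads carried no molecular identifiers, so reads and not molecules were counted. Alternatives were other scalings and filters, DESeq2 1.42.0, limma 3.58.1, unique or whole-gene reads, covariates and leaving out each library. Some genes are not reported here.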

Additional observations from a re-analysis of the deposited data

Results flagged for a closer look

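Values of single libraries that lay far from the rest of their state were looked for in 34 series of values, of which 8 had one. Chance gives about 1 in 20 for continuous values, a rate that cannot be set beside these 8, since most of them hold few reads and 1 read against zeros always stands apart. In late pregnancy, FXYD3 was at 0.236 CPM in LM pool 2, with the next library at 0.0647. ATP1B1 reads outside exons were at 34.5 CPM in HM pool 2, with the next at 15.4, and SCNN1B reads outside exons at 1.53 CPM in the same library. In lactation, SCNN1G was at 1.32 CPM in HM pool 1, and SCNN1B at 0.22 CPM in that library and at 0 in the other 5. Reads outside exons of SCNN1B and of SCNN1G were each at 0.708 CPM in MM pool 1 of lactation, which is 1 read, and at 0 in the other 5. The log2 ratio of ATP1B3 to the luminal markers was -5.71 in MM pool 2 of lactation, above the other 5. Apart from ATP1B1 and ATP1B3, these values rest on at most 7 reads.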

How the results depend on the processing

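The count of genes called lower among the 7 (1, ATP1B1) became 2 with library size alone and in limma on quantile-normalized RPKM with a pseudocount of 1 or of 0.1, and 0 in the lane 7 libraries. The count called higher (0) became 1 without a filter (SCNN1G, which entered that fit only through lactation, where it was high). It also became 1 with whole-gene reads (ATP1B3, log2 change 0.14, adjusted p 0.0383 in edgeR's test). ATP1B3 turned to -1.84 with library size alone, -0.085 with upper quartile scaling, -0.14 and -0.15 in limma (pseudocounts 1 and 0.1), and -0.019 with a filter of 10 reads in every library. With library size alone the pathway lists gave 43 lower and 1 higher, and reads outside exons gave 2 lower (CFTR was the second) and 0 higher. On those reads it moved ATP1B1 from -0.94 to -1.58 and ATP1B3 from 0.65 to 0.04 as well. CFTR reads outside exons, with no change, moved to 0.079 with exon library sizes and from -0.080 to 0.094 as each library was left out. Without KRT19 and ELF5 the log2 ratio to luminal markers was -0.26 for ATP1B1 and 0.35 for ATP1B3.

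Leaving out each library kept ATP1B1 between -0.66 and -0.41 (adjusted p 0.00457 to 0.0447) and the counts of called genes at 1 lower and 0 higher, with 9 to 11 pathway genes lower and 23 to 25 higher. The log2 ratio of ATP1B1 to ATP1B3 lay between -0.71 and -0.50, and lost its call only without HM pool 2 of lactation (-0.56, adjusted exact permutation p 0.0508). Same-numbered pools of the states did not deviate together (r from -0.0232 to 0.0651 over 6 pairs); with the replicate block ATP1B1 was -0.58 (adjusted p 0.00508), and 1 gene remained lower and 0 higher. The cause of these shifts was not tested. At this depth the counting intervals of FXYD3, CFTR, SCNN1A and SCNN1B all spanned no change. The values without HM pool 1 of lactation and without LM pool 2 of late pregnancy were chosen after seeing the data.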
